A study of Arabidopsis thaliana with 18 samples.

Results

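The comparison described here sets the systemic leaves of *lecrk-VI.2-2* against those of *bak1-5* after a mock treatment, without systemic acquired resistance (SAR). It uses 3 arrays of *lecrk-VI.2-2* and 3 arrays of *bak1-5*, 6 of the 18 ATH1 arrays in the series, chosen by their titles and not by any measured value. The wild type of the series is labeled Col-0, and all plants were 4 weeks old and grown in soil. On each plant, 3 lower leaves were infiltrated with 10 mM MgCl2, and RNA was taken 48 hr later from systemic leaves that had not been infiltrated, with leaves of 12 plants mixed for each sample. The remaining arrays, which are used here only as reference, are the wild type after MgCl2 and all 3 genotypes after infiltration of the lower leaves with the virulent pathogen *Pseudomonas syringae* pv. *maculicola* (*Psm*), again 3 arrays a group. The *lecrk-VI.2-2* plants carry a T-DNA insertion that lowers the transcript of the lectin receptor kinase gene *LecRK-VI.2*, and the *bak1-5* plants carry a mutated form of the co-receptor kinase BAK1. Each mutant is represented by 1 allele, so an effect of the gene and an effect particular to the line cannot be told apart.

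LecRK-VI.2 is a receptor kinase of the plasma membrane with an extracellular lectin domain, and the study examined it as a receptor for extracellular NAD+ and NADP+. BAK1 is a co-receptor shared by many ligand-binding receptors, among them the brassinosteroid receptor BRI1 and the immune receptors FLS2 and EFR, and the bak1-5 protein is known to impair immune signaling while leaving brassinosteroid signaling largely intact. In SAR, salicylic acid (SA) accumulates in leaves distant from the infection and, through NPR1, turns on defense genes such as *PR1*. Touch, wounding and other rapid stresses turn on a different group within minutes, among them the *TCH* genes, which encode calmodulin-like proteins and a cell wall enzyme. Because the 2 proteins were proposed to work in 1 complex, the direct comparison asks where the resting leaves of the 2 mutants differ.

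Few transcripts differed between the mutants after MgCl2. Levels are log2 RMA intensities, a difference is the mean of *lecrk-VI.2-2* minus the mean of *bak1-5* on that scale, and p values were adjusted over all 22746 probe sets. At an adjusted p of at most 0.05 and a fold change of at least 2, 6 probe sets (0.0264%) were higher in *lecrk-VI.2-2* and 6 (0.0264%) were higher in *bak1-5*. By the adjusted p alone, 7 (0.0308%) and 9 (0.0396%) passed, and these 16 are the probe sets described below. Of the 1491 probe sets with an unadjusted p under 0.05, 470 were higher in *lecrk-VI.2-2* and 1021 in *bak1-5*. The median difference over all probe sets was −0.02. The median standard error of a difference was 0.106, and 3 arrays a group limit the precision.

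One *lecrk-VI.2-2* array stood apart. On replicate 2, 16.0% of probe sets reached a log2 level of 6, against 18.7 to 19.3% on the other 5 compared arrays, and the median SD within the group was 0.14 for *lecrk-VI.2-2* against 0.0929 for *bak1-5*. The *LecRK-VI.2* transcript did not separate the mutants: the *LecRK-VI.2* probe set read 5.59, 5.52 and 5.57 in *lecrk-VI.2-2* and 5.58, 5.51 and 5.72 in *bak1-5*. The difference of −0.05 had a 95% interval from −0.22 to 0.13. The wild type read 5.44, 5.45 and 5.55, so that *lecrk-VI.2-2* was not below it (difference 0.08, adjusted p = 1). By qPCR the study measured less *LecRK-VI.2* transcript in its insertion lines than in the wild type. The array level was low, with a highest group mean of 5.84 for this probe set. The probe set was assigned to *LecRK-VI.2* only by the match of changes to the supplementary rows, and where the probes lie relative to the insertion is not given in the sources used here, so this probe set does not check the labels. *BAK1* was 5.86, 5.19 and 5.80 in *lecrk-VI.2-2* and 5.55, 5.85 and 5.59 in *bak1-5* (difference −0.05). The leaf identity was plain from *LHCB4.1*, a chlorophyll-binding protein gene of the light-harvesting antenna, at 11.75 to 11.89 on all 6 arrays. Of the vascular markers, *SWEET11* and *SWEET12*, sugar transporters of the phloem, differed by −0.07 and 0.07, while no marker of guard cells, trichomes, dividing cells or flowers was assigned to a probe set, so that a shift in cell types was not tested for these. In leaf RNA, fewer cells of a type and less RNA per cell cannot be told apart.

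The probe sets that were higher in *lecrk-VI.2-2* were all raised by SAR in the wild type, and 2 of them, *PCC1* and *ACD6*, belong to the list of SA-responsive genes described below. *PCC1*, which encodes a small membrane-associated protein induced by pathogens, SA and the clock, differed most. It read 10.91, 9.36 and 10.48 in *lecrk-VI.2-2* and 8.03, 8.15 and 8.60 in *bak1-5*, and in the wild type 8.94, 9.0 and 10.03. The difference was 1.99 (SE 0.30, a 3.97-fold higher level, adjusted p = 0.0096), with a 95% interval from 1.36 to 2.61. All 3 *lecrk-VI.2-2* arrays lay above all 3 *bak1-5* arrays, and the wild type lay between the mutants in its mean and overlapped *lecrk-VI.2-2*.

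*AT3G22240*, which lies close to *PCC1* on chromosome 3 with *AT3G22235* as the only protein-coding gene between them in the TAIR10.1 annotation, followed the same order. It gave 11.07, 10.00 and 10.71 in *lecrk-VI.2-2* and 9.06, 9.30 and 9.19 in *bak1-5*, a difference of 1.41 (SE 0.22, adjusted p = 0.010). Probe sequences were not used, so whether the probe sets of these neighbors detect each other's transcripts was not tested. *ACD6* encodes a membrane protein with ankyrin repeats that promotes SA accumulation and in turn responds to SA. It read 9.32, 8.06 and 9.0 against 7.44, 7.17 and 7.40, a difference of 1.46 (SE 0.23, adjusted p = 0.010). *ANK* (*AT5G54610*, also known as *BDA1*) encodes another membrane protein with ankyrin repeats, which acts in SA-dependent immunity. The arrays of *lecrk-VI.2-2* gave 7.28, 6.13 and 6.91 and those of *bak1-5* 5.38, 5.32 and 5.10, which differ by 1.51 (SE 0.20, adjusted p = 0.0078). In all of these genes the *bak1-5* arrays lay within a narrow band, and the *lecrk-VI.2-2* arrays spread over more than a log2 unit above them.

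The other 3 genes of this group have varied roles. *WAK1* encodes a wall-associated receptor kinase that binds pectin and is induced by SA, and it read 6.55, 5.09 and 6.43 against 4.62, 4.30 and 4.47 (difference 1.56, SE 0.28, adjusted p = 0.048). *AT2G41090* encodes a calmodulin-like protein, and it read 10.48, 9.49 and 10.31 against 8.88, 8.84 and 8.94 (difference 1.2, SE 0.18, adjusted p = 0.0096). The smallest difference belonged to *AT2G25510*, at 12.46, 12.06 and 12.33 against 11.66, 11.61 and 11.50 (difference 0.70, SE 0.10, adjusted p = 0.0078). For all 7 probe sets, *lecrk-VI.2-2* replicate 1 was the highest and replicate 2, the dim array, the lowest of its group. For all 7, too, the wild-type mean lay between the 2 mutants, and neither mutant passed the test against the wild type: for *PCC1*, *lecrk-VI.2-2* was 0.93 above and *bak1-5* 1.06 below the wild type (adjusted p = 0.92 and 0.48). These 2 comparisons share the wild-type arrays, and each shares a mutant with the comparison here.

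**Figure D1:**
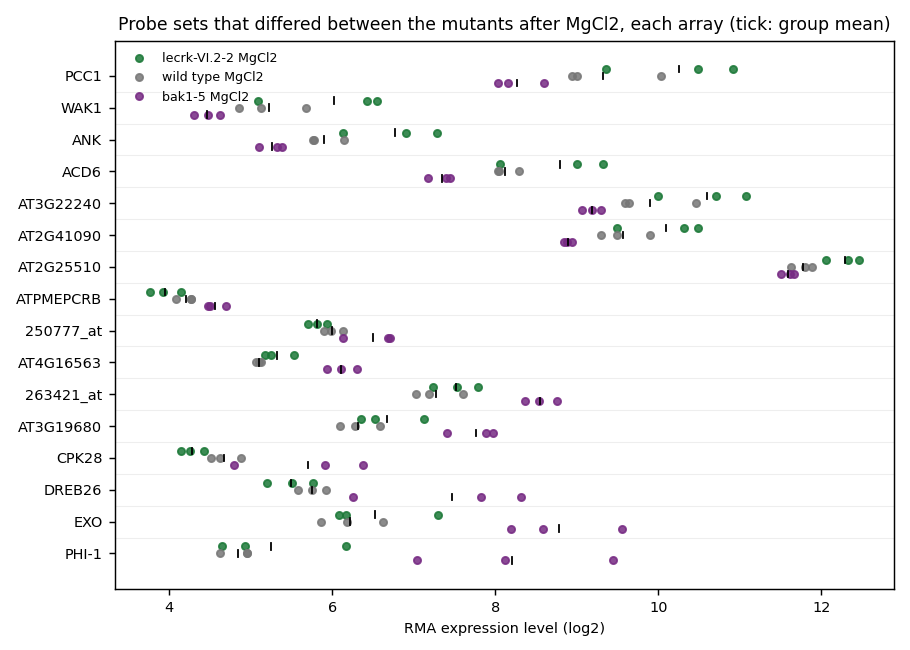
Log2 RMA level (x axis) on each MgCl2 array of the 16 probe sets with an adjusted p of at most 0.05 between the mutants. Green points are *lecrk-VI.2-2*, purple *bak1-5* and gray the wild type (3 arrays each), and the tick is the group mean; from *PCC1* to *AT2G25510* the *lecrk-VI.2-2* arrays are the higher ones, and the *bak1-5* arrays are the higher ones in the 9 sets below.

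Several genes stood just outside the threshold. On the *lecrk-VI.2-2* side these were *AT5G03350*, which encodes an SA-induced legume lectin-like protein (difference 1.60, adjusted p = 0.052), *CCL*, whose transcript is short-lived and under clock control (1.2, 0.052), *ECS1* (0.56, 0.055), *AT1G19960* (1.41, 0.092) and *LURP1*, which is needed for resistance to a downy mildew pathogen (1.48, 0.099). The *AT5G03350* levels were 8.64, 6.90 and 7.69 in *lecrk-VI.2-2* and 6.12, 6.20 and 6.09 in *bak1-5*, with 7.52, 7.58 and 8.56 in the wild type. Here the wild type was close to *lecrk-VI.2-2*, and it was *bak1-5* that was lower than the wild type, with a difference of −1.75 (adjusted p = 0.032). On the *bak1-5* side, *NUDT7*, a hydrolase of NADH and ADP-ribose that restrains defense responses, differed by −1.11 (adjusted p = 0.099) and the U-box protein gene *AT1G23030* by −0.99 (adjusted p = 0.079). *AT1G70985* and *AT3G54400* differed by −0.53 and −0.77 (adjusted p = 0.07 and 0.089), and the unnamed probe sets 267308_at and 255549_at by −0.58 and −0.75 (adjusted p = 0.052 and 0.099). The values just inside the threshold were those of *WAK1*, *DREB26*, *CPK28*, *AT3G19680*, *ATPMEPCRB* and the unnamed probe set 250777_at, each at 0.048.

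The probe sets that were higher in *bak1-5* included genes of cell wall proteins, a calcium-dependent kinase and a transcription factor. *PHI-1* (*AT1G35140*) and *EXO* (*AT4G08950*) encode related extracellular proteins of the EXORDIUM family, and *EXO* is a known brassinosteroid-induced gene that promotes leaf growth. *PHI-1* had the largest difference of all probe sets. The *bak1-5* arrays gave 8.12, 9.44 and 7.04, against 4.65, 4.93 and 6.17 for *lecrk-VI.2-2* and 4.62, 4.95 and 4.96 in the wild type. The difference of −2.95 (SE 0.46, adjusted p = 0.010), a 7.74-fold higher level in *bak1-5*, had a 95% interval from −3.91 to −1.99. *EXO* read 8.58, 9.55 and 8.19 in *bak1-5* and 6.17, 6.08 and 7.30 in *lecrk-VI.2-2* (difference −2.26, SE 0.31, 4.77-fold, adjusted p = 0.0078). For both genes it was *bak1-5* that departed from the wild type, by 3.35 for *PHI-1* (adjusted p = 0.0032) and 2.56 for *EXO* (adjusted p = 0.00096), while *lecrk-VI.2-2* was 0.40 and 0.30 above the wild type with adjusted p values of 1. The family members *EXL2* and *EXL4*, looked up after these values were seen, differed by −0.54 and −0.19 (adjusted p = 0.78 and 0.92).

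*DREB26* (*AT1G21910*), which encodes a transcription factor of the AP2/ERF class, read 7.82, 8.32 and 6.26 in *bak1-5* and 5.20, 5.51 and 5.76 in *lecrk-VI.2-2* (difference −1.97, SE 0.36, adjusted p = 0.048). *CPK28* encodes a calcium-dependent protein kinase that limits pattern-triggered immunity by promoting the turnover of the kinase BIK1. It read 5.91, 6.38 and 4.80 in *bak1-5* against 4.26, 4.14 and 4.43, a difference of −1.42 (SE 0.26, adjusted p = 0.048). The level of *CPK28* was low, with a highest group mean of 5.70. In both genes the *bak1-5* arrays spread widely, from a replicate 3 near the other genotypes to a replicate 2 far above them.

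The remaining 5 probe sets differed by less. *AT3G19680*, whose protein has no role given in the sources used here, read 7.88, 7.97 and 7.41 in *bak1-5* and 6.53, 6.35 and 7.12 in *lecrk-VI.2-2* (difference −1.09, SE 0.20, adjusted p = 0.048). *AT4G16563*, which encodes an aspartyl protease family protein, read 5.93, 6.30 and 6.11 against 5.25, 5.18 and 5.53 (−0.79, SE 0.12, adjusted p = 0.0096). *ATPMEPCRB* (*AT4G02330*), a pectin methylesterase gene, read 4.70, 4.50 and 4.47 against 4.15, 3.77 and 3.92 (−0.61, SE 0.11, adjusted p = 0.048). Its level was low too, with a highest group mean of 4.56. The probe sets 263421_at and 250777_at, which were not assigned to a gene, differed by −1.03 and −0.69 (adjusted p = 0.0096 and 0.048). Of the 9 probe sets higher in *bak1-5*, 5 also passed for *bak1-5* against the wild type (*PHI-1*, *EXO*, *AT3G19680*, 263421_at and *AT4G16563*), and in those the wild-type mean lay below both mutants. In the other 4 it lay between them. Replicate 3 was the lowest *bak1-5* array in 8 of the 9 and replicate 3 the highest *lecrk-VI.2-2* array in 8 of the 9.

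These calls rest on few arrays and on the spread shared with the other groups. With only the 6 compared arrays in the fit, 0 of the 16 passed (adjusted p from 0.31 to 0.83). At 2-fold, leaving out 1 of the 6 arrays gave 0 to 9 probe sets higher in *lecrk-VI.2-2* and 0 to 19 higher in *bak1-5*, the 19 without *bak1-5* replicate 3. The direction of all 16 was kept without any 1 of the 6 arrays, but 0 of the 16 passed without *bak1-5* replicate 2 (adjusted p from 0.052 to 0.29) or without *lecrk-VI.2-2* replicate 1 (0.063 to 0.21), and 4 of them (2 on each side) passed without *bak1-5* replicate 1. Without the dim *lecrk-VI.2-2* replicate 2, all 7 that were higher in *lecrk-VI.2-2* passed and 4 of the 9 that were higher in *bak1-5* did.

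Against the wild type, the mutants differed in how many probe sets were called after MgCl2, although the difference between these counts was not tested. For *bak1-5*, 8 probe sets (0.0352%) were above and 1 (0.0044%) was below the wild type at 2-fold, the latter being *AT5G03350*. For *lecrk-VI.2-2* the limma test called 0 above (0%) and 0 below (0%), with 987 at an unadjusted p under 0.05 against 912 for *bak1-5*. Without the dim pair of *lecrk-VI.2-2* arrays (MgCl2 replicate 2 and *Psm* replicate 3), 4 were above. The 8 were *PHI-1*, *EXO*, *AT3G19680*, 263421_at, *AT4G16563*, *EXLA1*, *AT1G23030* and *AT3G54400*, the last pair at 1.22 and 1.00 above the wild type (adjusted p = 0.018 and 0.012).

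The members of lists of genes chosen by role, with earlier results of these data known, were then examined. Their counts therefore describe the lists and are not an independent test. Of 33 lists, 27 had at least 1 measured member, and members of 3 lists passed. In the list of SA-responsive genes, 20 of 23 members were measured, 2 of them passed, both higher in *lecrk-VI.2-2* (*PCC1* and *ACD6*), against 0.0308% of all probe sets. Of the 20, 13 were above 0 and 7 below, with a median of 0.13 against −0.02 over all probe sets and a range from −1.15 to 1.99. None of the *PR* genes passed: *PR1* read 6.20, 5.79 and 6.05 in *lecrk-VI.2-2* and 6.02, 5.75 and 5.84 in *bak1-5*, a difference of 0.15 with a 95% interval from −0.17 to 0.46. *PR2*, a glucanase gene, differed by 0.11 (from −0.78 to 1.0) and *PR5*, a thaumatin-like protein gene, by −0.15 (from −0.61 to 0.31). *WRKY70*, a transcription factor gene of the SA response, and *DMR6*, whose enzyme hydroxylates SA, differed by 0.65 and 0.47 (adjusted p = 0.60 and 0.26). The transcription factor gene *WRKY18* lay the other way, at 3.90, 3.90 and 4.34 in *lecrk-VI.2-2* and 5.31, 5.56 and 4.74 in *bak1-5* (difference −1.15, adjusted p = 0.15). The arrays of the mutants did not overlap for *WRKY18*. All *bak1-5* arrays lay above all *lecrk-VI.2-2* arrays for 6.34% of all probe sets and 12.06% of those raised by SAR in the wild type. Without *bak1-5* replicate 1 or 2 or *lecrk-VI.2-2* replicate 1, 0 genes of the list passed, and without the dim *lecrk-VI.2-2* replicate 2, 6 did. Only 4 of the 20 were assigned by the platform annotation, and the others by a match of changes, which named mostly genes that SAR raised in the wild type (801 of 983).

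The measured genes upstream in the SA pathway differed little between the mutants, but most of those of SA synthesis and regulation read low. Of 9 measured genes of SA synthesis and its regulation, 0 passed, with differences from −0.27 for *PAD4*, a lipase-like regulator, to 0.17 for *PBS3*, an enzyme of SA synthesis, and none had an unadjusted p under 0.05. *ICS1*, whose isochorismate synthase makes most pathogen-induced SA, differed by −0.22. Of these 9 genes, 6 had a mean under a log2 level of 6 in every group, which limits what the comparison can show. Among the SA receptors, *NPR1* read 6.06, 6.02 and 5.89 against 5.67, 5.72 and 5.51 and *NPR4* read 6.14, 5.90 and 5.91 against 5.74, 5.39 and 5.56. In both, all *lecrk-VI.2-2* arrays lay above all *bak1-5* arrays, by 0.36 and 0.42 (adjusted p = 0.58 and 0.40), as they did for 3.82% of all probe sets, and *NPR3* differed by −0.26.

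The touch, wounding and rapid stress genes were mostly higher in *bak1-5* in their means, without a single call. Of 35 genes, 30 were measured (5 of them assigned by the platform annotation), 29 of these were below 0 and 1 above, 9 had an unadjusted p under 0.05 and 0 passed the adjusted test in limma. Of all probe sets, 57.8% were below 0 and 4.49% had such an unadjusted p with the higher level in *bak1-5*. The touch list leaned to genes that SAR raised in the wild type, with a median change of 1.81. Of the 564 probe sets that SAR raised, 385 were below 0. The median of the touch list was −0.37 and its range was from −1.91 to 0.20. *TCH4*, a xyloglucan-modifying cell wall enzyme gene, read 10.07, 10.64 and 8.90 in *bak1-5* and 7.40, 7.64 and 8.84 in *lecrk-VI.2-2* (difference −1.91, SE 0.44, adjusted p = 0.21). *SZF1*, a zinc finger protein gene, read 6.30, 7.13 and 5.05 against 4.37, 4.12 and 5.04 (−1.65, SE 0.42, adjusted p = 0.34). In both, *bak1-5* replicate 3 was hardly above *lecrk-VI.2-2* replicate 3. *MYB44* differed by −1.17, *TCH3* by −1.09 and *CYP707A3*, an abscisic acid hydroxylase gene, by −0.88 (adjusted p = 0.26, 0.45 and 0.21). Without *bak1-5* replicate 3, 4 genes of this list passed, and with arrays weighted by their quality 3 did. When any other of the 6 compared arrays was left out, or with only those 6 in the fit, 0 passed.

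**Figure D2:**
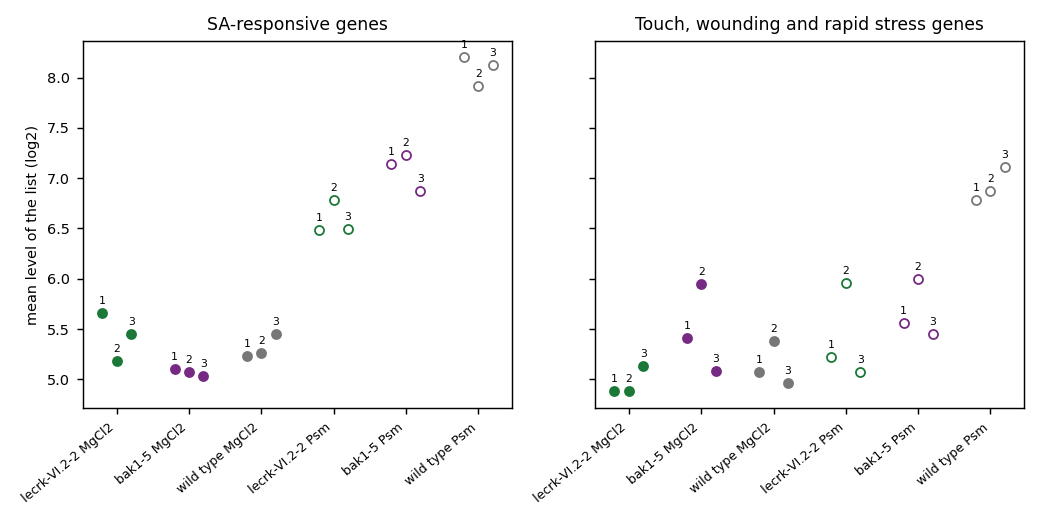
Mean log2 level (y axis) of the 20 measured SA-responsive genes (left) and the 30 measured touch, wounding and rapid stress genes (right) on each of the 18 arrays, with the replicate number above each point; filled points are MgCl2 and open points *Psm*. After MgCl2 the SA-responsive mean was 5.66, 5.18 and 5.45 in *lecrk-VI.2-2* and 5.10, 5.07 and 5.03 in *bak1-5*, and the touch mean was 4.88, 4.88 and 5.13 against 5.41, 5.95 and 5.08.

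The array means of the 2 lists show how the replicates behaved. For the SA-responsive genes, each *lecrk-VI.2-2* mean was above each *bak1-5* mean, but the dim replicate 2, at 5.18, was below the wild-type means of 5.23, 5.26 and 5.45. For the touch genes, the 3 *bak1-5* arrays ranged from 5.08 to 5.95, with the lowest of them below the *lecrk-VI.2-2* maximum of 5.13. Wild-type replicate 2, at 5.38, was also above *bak1-5* replicate 3. The labels give no day of growth, treatment or harvest, so the part of handling in these values was not tested.

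In the other lists, single genes stood out. In the list of cysteine-rich and wall-associated receptor kinases, *WAK1* was the only one of 9 measured genes to pass, against 0.0308% of all probe sets, and the related *WAK2* differed by 0.21 (adjusted p = 0.71). In the list of pattern-triggered immunity genes, *PHI-1* was the only one of 9 to pass, against 0.0396% of all probe sets, while *RBOHD*, the oxidase of the immune oxidative burst, and the kinase gene *BIK1* differed by −0.56 and −0.05. Of 24 measured jasmonic acid genes, 17 were below 0, 6 had an unadjusted p under 0.05 and 0 passed in limma, with a median of −0.18, where 57.8% of all probe sets were below 0 and 4.49% had such a p toward *bak1-5*. The median SAR change of the jasmonic acid genes in the wild type was 2.86, and 385 of the 564 probe sets that SAR raised were below 0. Among the jasmonic acid genes, *LOX4*, a lipoxygenase gene of jasmonate synthesis, read 5.92, 5.98 and 5.05 in *bak1-5* and 4.55, 4.29 and 4.97 in *lecrk-VI.2-2* (−1.05, adjusted p = 0.28), and the repressor gene *JAZ7* differed by −1.24 (adjusted p = 0.61). Neither the 10 measured chaperone and folding genes of the endoplasmic reticulum (median −0.02) nor the 6 of indole glucosinolate and camalexin synthesis (median −0.18) held a call, with 1 and 0 at an unadjusted p under 0.05. That 1 gene was higher in *lecrk-VI.2-2*, a direction in which 2.07% of all probe sets had such a p. The expansin-like genes *EXLA1* and *EXLA2*, whose proteins resemble cell wall loosening expansins, differed by −1.0 and −0.48 (adjusted p = 0.43 and 0.40), and *bak1-5* was above the wild type for both, by 1.76 and 0.72 (adjusted p = 0.022 and 0.037). Of 20 listed brassinosteroid genes, only 2 were assigned to a probe set, both under a log2 level of 6 in every group mean. *BRL1*, a receptor gene, and *BKI1*, an inhibitor of the receptor, differed by 0.07 and 0.03. With so few members, the brassinosteroid response was not tested by this list.

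**Figure D3:**
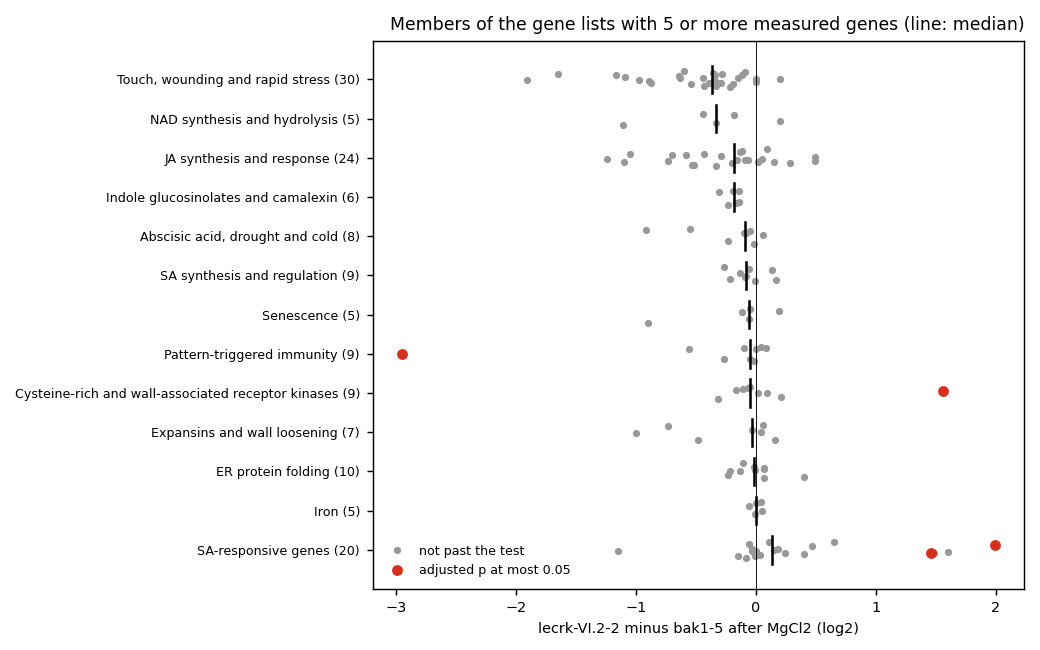
Difference between the mutants after MgCl2 (x axis, log2, *lecrk-VI.2-2* minus *bak1-5*) for each measured member of the lists with at least 5 measured genes, with the number measured in parentheses. Red points passed at an adjusted p of at most 0.05 and black lines are medians; the medians run from −0.37 for the touch genes to 0.13 for the SA-responsive genes, and the called members lie far from the medians of their lists.

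How the differences relate to SAR was examined with the wild-type arrays, which are not among the 6 compared here. In the wild type, SAR raised 564 probe sets (2.48%) and lowered 151 (0.664%) at the same threshold. All 7 probe sets that were higher in *lecrk-VI.2-2* were among the 564, and of the 9 that were higher in *bak1-5*, 2 (*PHI-1* and *EXO*) were among the 564 and 0 among the 151. Probe sets raised by SAR nevertheless had a median difference of −0.10, with 179 above and 385 below 0, against 9588 above and 13158 below among all probe sets. Their spread was wider than that of all probe sets, with the 5th and 95th percentiles at −0.89 and 0.38 against −0.25 and 0.18. Of the 10 and 27 probe sets with means at least 2-fold higher in *lecrk-VI.2-2* and *bak1-5*, 9 and 19 were among the 564. Those toward *bak1-5* included *TCH4*, *SZF1*, *DIC2*, a mitochondrial carrier gene, and *AGP1*, an arabinogalactan protein gene (−1.47 and −1.43 for the last pair, adjusted p = 0.68 and 0.33). Probe sets lowered by SAR had a median of −0.06. Genes raised by SAR thus lay in both tails.

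**Figure D4:**
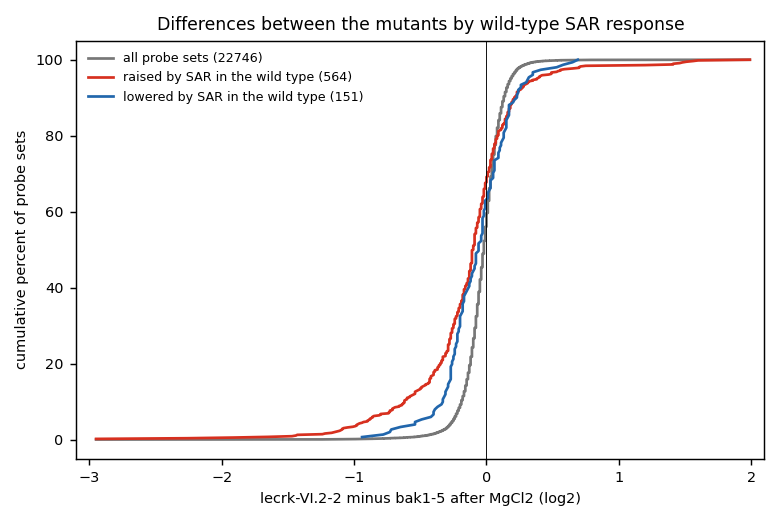
Cumulative percent of probe sets (y axis) by the difference between the mutants after MgCl2 (x axis, log2), for all 22746 probe sets (gray) and those raised (red, 564) or lowered (blue, 151) by SAR in the wild type. The red curve leaves the gray one on both sides, most on the left, with its 5th percentile at −0.89 against −0.25.

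Few of these differences were seen again in the systemic leaves after *Psm*. The study found SAR to be compromised in both mutants. Mean *PR1* levels after *Psm* were 6.31 in *lecrk-VI.2-2*, 7.51 in *bak1-5* and 9.66 in the wild type. After *Psm*, 4 probe sets (0.0176%) were higher in *lecrk-VI.2-2* and 10 (0.044%) in *bak1-5*, and the 12 called after MgCl2 and the 14 called after *Psm* had 1 probe set in common, *AT3G19680*, with the opposite sign. It was lower in *lecrk-VI.2-2* after MgCl2 and higher after *Psm*, at 6.85, 6.83 and 6.70 against 5.25, 5.27 and 4.67 (difference 1.73, adjusted p = 0.0012). All 7 probe sets that were higher in *lecrk-VI.2-2* after MgCl2 had a difference below 0 after *Psm*, from −0.52 for *WAK1* to −0.05 for *AT2G25510*, with adjusted p values of 0.49 or more. These 7 were among the 564 that SAR raised in the wild type. Those 564 had a median difference of −0.37 after *Psm*, against 0.02 over all probe sets. *PCC1* then read 11.87, 11.86 and 11.79 in *lecrk-VI.2-2* and 12.09, 12.11 and 11.94 in *bak1-5*, above every MgCl2 array of either mutant. Of the 9 that were higher in *bak1-5* after MgCl2, 7 had a difference above 0 after *Psm*: *PHI-1* read 4.34, 5.40 and 4.55 in *bak1-5* and 5.15, 5.93 and 4.83 in *lecrk-VI.2-2*. In *bak1-5*, *PHI-1* and *EXO* were thus lower on every *Psm* array than on any MgCl2 array.

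The change of the difference with treatment was tested in the same fit. At the same threshold, 3 probe sets (0.0132%) had a more positive and 4 (0.0176%) a more negative difference after MgCl2 than after *Psm*. *AT3G19680* and *EXO* had a difference of differences of −2.82 each (adjusted p = 0.00014 and 0.019), 263421_at one of −1.74 (0.0018) and 245362_at, not assigned to a gene, one of −1.34 (0.019). On the other side stood *ANK* at 1.77 (0.019), *RLP37*, a receptor-like protein gene whose probe set is of the kind that can detect more than 1 transcript, at 1.76 (0.0024) and *PR1* at 1.35 (0.019). For *RLP37* the difference was 0.70 after MgCl2 (adjusted p = 0.21) and −1.06 after *Psm* (adjusted p = 0.0068). For *PR1* it was 0.15 after MgCl2 and −1.2 after *Psm*, when it read 6.19, 6.47 and 6.27 in *lecrk-VI.2-2* and 7.35, 7.95 and 7.23 in *bak1-5*. *PCC1*, *ACD6*, *WAK1* and *PHI-1* did not pass, each at an adjusted p of 0.068, with changes of 2.19, 1.64, 2.08 and −3.49.

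**Figure D5:**
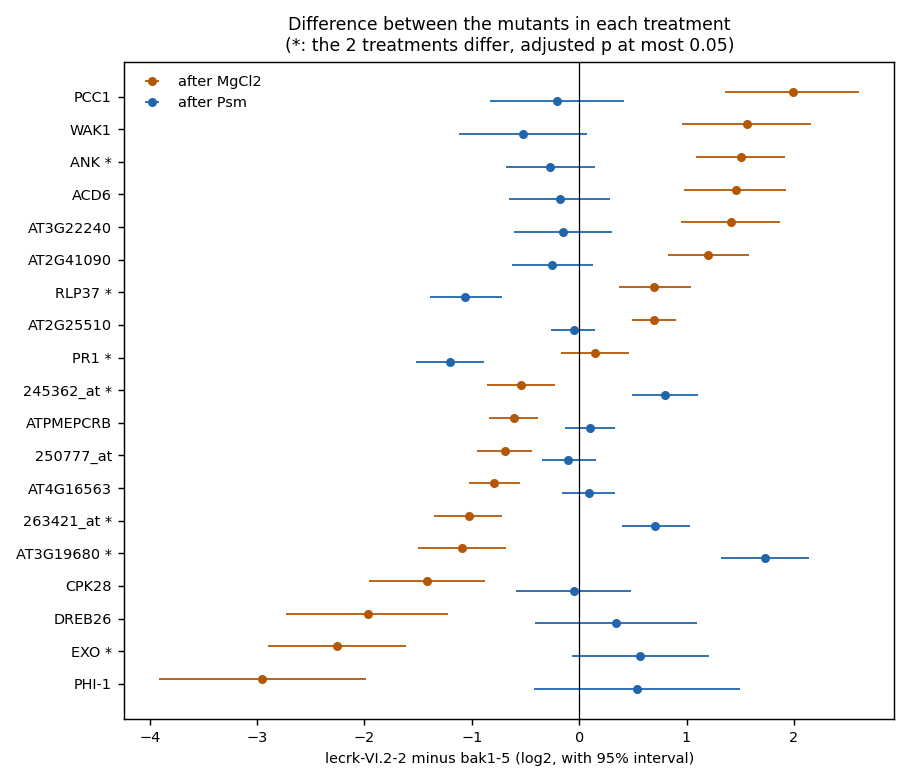
Difference between the mutants (x axis, log2, *lecrk-VI.2-2* minus *bak1-5*, with the 95% interval) after MgCl2 (orange) and after *Psm* (blue) for the 16 probe sets that passed after MgCl2 and the 3 others whose difference changed with treatment. Stars mark the 7 with an adjusted p of at most 0.05 for that change; the orange points of *PCC1* to *AT2G41090* lie above 1, where the blue ones lie below 0.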

How the data were processed

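The authors deposited log2 intensities per probe set, made by Robust Multichip Analysis with the affy package, which corrects background, equalizes array distributions (so that overall shifts are removed) and summarizes probes. Of 22810 probe sets, 64 controls were left out. Probe sets were assigned to genes by the platform annotation (13498) or by matching their changes to the study's supplementary rows (983), and 7698 had no gene; of the 983, 801 were raised by SAR in the wild type by adjusted p, 0 were lowered and 182 did not pass, so genes named by the match lean to those that SAR raised.

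A mean for each of 6 groups was fitted to 18 arrays in limma 3.58.1 (R 4.3.3; lmFit, eBayes, 12 residual and 18.03 total degrees of freedom), with Benjamini-Hochberg adjustment and tested on simulated data. Lists used the brightest probe set per gene. Arrays carry no read depth; their number limits precision. The labels call the replicates biological but do not describe separate growth or treatment, and the p values cover only variation among the arrays given. The comparison, lists and members were chosen with earlier results of these data known. Named genes were *LecRK-VI.2*, *BAK1* and 3 *PR* genes; per direction up to 15 with the largest called difference and no overlap of arrays; up to 4 per list and 5 for the change with treatment, by adjusted p; and counts of 5 or fewer. Other genes were named after their values were seen. Promoter motifs were not analysed here. Alternatives were other arrays in the fit, priors, weights, scalings, thresholds, a filter on dim probe sets, a replicate block and leaving out arrays.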

Additional observations from a re-analysis of the deposited data

Results flagged for a closer look

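The difference between the mutants changed between MgCl2 and *Psm* for 7 probe sets by the test of that change. The change was −2.82 for *AT3G19680*, −2.82 for *EXO*, −1.74 for 263421_at, −1.34 for 245362_at, 1.35 for *PR1*, 1.76 for *RLP37* and 1.77 for *ANK*, on the log2 scale. Leaving out 1 of the 12 mutant arrays moved the count above 0 from 3 to between 1 and 29 and the count below 0 from 4 to between 2 and 19, with 29 and 8 without the dim *lecrk-VI.2-2* MgCl2 replicate 2. Groups of 3 arrays were not screened for single outlying arrays.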

How the results depend on the processing

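All 16 probe sets that passed between the mutants after MgCl2 kept their direction under each alternative that gave a value. The counts moved more. With only the 6 compared arrays in the fit, 0 and 0 were higher in *lecrk-VI.2-2* and *bak1-5*, and 0 SA-responsive genes passed. With the 12 mutant arrays, 2 were higher in *bak1-5* and 1 SA-responsive gene passed. An intensity trend with a robust prior gave 3 higher in *bak1-5* and 0 below the wild type in *bak1-5*. Array weights gave 12 and 18, with 6 SA-responsive and 3 touch genes, 36 above and 37 below 0 for the change with treatment, 14 and 17 after *Psm*, 7 above and 1 below the wild type for *lecrk-VI.2-2*, and 23 and 4 for *bak1-5*. Cyclic loess gave 10 higher in *lecrk-VI.2-2* and 5 SA-responsive genes. An adjusted p of 0.01 gave 3 and 2, a fold of 1.2 inside the test 1 and 1, and no fold limit 11 and 34 after *Psm*. Without the dim pair of *lecrk-VI.2-2* arrays, a choice made after seeing the data, there were 2 higher in *bak1-5*, 6 SA-responsive genes, 22 and 7 for the change with treatment, 7 and 5 after *Psm*, and 4 above the wild type in *lecrk-VI.2-2*. The cause of these shifts was not tested.

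Leaving out 1 array gave 0 to 9 higher in *lecrk-VI.2-2*, 0 to 19 higher in *bak1-5*, 0 to 6 SA-responsive genes and 0 to 4 touch genes. It gave 1 to 29 above and 2 to 19 below 0 for the change with treatment, 2 to 8 above and 1 to 40 below 0 after *Psm*, 0 to 3 above the wild type for *lecrk-VI.2-2*, and 5 to 15 above and 0 to 4 below it for *bak1-5*. Same-numbered arrays of the mutants did not deviate together (correlations −0.08, 0.23 and −0.10), and with the replicate number as a block 6 and 4 were called.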
